A study of Homo sapiens with 4 samples.

Results

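The transcriptome of A549 cells that had been in a magnetic field for 2 h was compared with that of A549 cells kept without the field. A549 is an established line from a human non-small cell lung cancer, and 293T, a line from embryonic kidney, was treated in parallel in the same series. Each group was listed as 1 sample with 3 replicates, which are the numbered columns of the deposited table and are called exposed and control libraries 1 to 3 here. RNA was selected on oligo(dT) beads, so transcripts with short poly(A) tails are captured poorly. Separate cultures for the replicates are not stated. The p-values therefore rest on how much these libraries vary, and that variation may be technical only. Neither the field strength nor the culture temperature is given in the sources used here. Genes were taken when their level reached 0.5 FPKM (fragments scaled by gene length and library total) in at least 3 of the 6 A549 libraries. This left 12271 of the 26348 genes listed for the series.

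The largest rises lay in genes of protein quality control, which works in 2 compartments. In the cytosol and nucleus, heat shock factor 1 (HSF1) is held inactive by chaperones and is freed when unfolded protein occupies them. It then binds heat shock elements, arrays of inverted GAA units, and drives the HSP70, HSP90, HSP40 and small heat shock protein genes. In the endoplasmic reticulum (ER), unfolded protein activates sensor proteins in the membrane, and the factors they release, XBP1 and ATF6 among them, bind ER stress elements in front of the genes for ER chaperones and for ER-associated degradation.

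The libraries matched their label. The keratins KRT8 and KRT18 stood at 1564 FPKM or more in all 6 A549 libraries and the aldehyde dehydrogenase ALDH1A1 at 2154 FPKM or more. CDKN2A, which is deleted in this line, did not exceed 0.0561 FPKM. The sums of the leukocyte and endothelial markers did not exceed 3.11 FPKM, nearly all of it CD14. Among fibroblast markers COL1A1 was between 1.59 and 3.33 FPKM while COL1A2, DCN and PDGFRB stayed at 0.0315 FPKM or less. LUM, also a fibroblast marker, was between 0.356 and 0.437 FPKM. The fibroblast markers summed to 2.44 to 3.77 FPKM in exposed and 1.98 to 2.23 FPKM in control libraries. The alveolar markers SFTPC and NKX2-1 were at or near 0, while NAPSA averaged 1.10 FPKM in exposed and 0.604 FPKM in control libraries. The part of either list in the results was not tested. The counts recovered from the FPKM values summed to 37775909 to 38884705 in the A549 libraries. The libraries marked exposed and control lay apart on the first principal component, which carried 76.2% of the variance.

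Some genes that rose held a heat shock element or an ER stress element in their promoters. The sequences below were read from the RefSeq promoter windows of GRCh38.p14, each 250 bases before to 50 after a start, and are shown 5′ to 3′ in the direction of transcription because they carry the elements discussed here. In the first set, capitals mark the GAA and TTC units of every GAANNTTC or TTCNNGAA match within the stretch shown. Before the start, 4 such matches were counted for HSPA8 and 6 for CHORDC1, more than their stretches show.
HSPA6: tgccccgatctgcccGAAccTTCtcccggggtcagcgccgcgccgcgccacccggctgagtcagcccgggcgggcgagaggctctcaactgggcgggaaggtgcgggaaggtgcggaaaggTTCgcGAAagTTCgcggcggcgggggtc
HSPA1B: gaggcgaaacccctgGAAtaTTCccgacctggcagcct
HSPA1A: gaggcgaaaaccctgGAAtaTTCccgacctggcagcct
DNAJB1: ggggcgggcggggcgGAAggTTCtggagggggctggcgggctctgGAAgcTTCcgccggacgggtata
HSPB1: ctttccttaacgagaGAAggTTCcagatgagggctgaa
HSPB8: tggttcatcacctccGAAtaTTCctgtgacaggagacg
SERPINH1: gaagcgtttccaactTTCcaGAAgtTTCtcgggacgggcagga
HSPA8: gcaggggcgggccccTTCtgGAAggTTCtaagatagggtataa
HSP90AA1: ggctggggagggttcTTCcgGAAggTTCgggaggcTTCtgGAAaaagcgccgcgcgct
CHORDC1: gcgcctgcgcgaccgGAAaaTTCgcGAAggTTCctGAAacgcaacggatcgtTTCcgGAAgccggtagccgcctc
HSPD1: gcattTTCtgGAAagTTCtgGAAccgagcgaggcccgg
MICB: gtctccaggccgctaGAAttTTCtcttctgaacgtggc
ZFAND2A: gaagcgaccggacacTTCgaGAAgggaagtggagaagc

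In the second set, capitals mark the ends of the ER stress element, CCAAT and CCACG with 9 bases between them, or the reverse complement of each.
HSPA5: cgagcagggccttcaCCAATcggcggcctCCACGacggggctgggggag
XBP1: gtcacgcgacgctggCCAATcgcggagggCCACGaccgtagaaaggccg
HSP90B1: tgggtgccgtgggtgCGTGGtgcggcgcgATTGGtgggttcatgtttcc
CRELD2: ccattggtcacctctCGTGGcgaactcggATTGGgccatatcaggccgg
FICD: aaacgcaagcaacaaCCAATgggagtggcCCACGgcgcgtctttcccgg

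The stretches lie at chr1:161524345-161524493 (plus strand), chr6:31827618-31827655 (plus strand), chr6:31815422-31815459 (plus strand), chr19:14518422-14518489 (minus strand), chr7:76302476-76302513 (plus strand), chr12:119178828-119178865 (plus strand) and chr11:75562162-75562204 (plus strand) for the first 7 genes. Those of HSPA8, HSP90AA1, CHORDC1, HSPD1, MICB and ZFAND2A lie at chr11:123062164-123062206 (minus strand), chr14:102087090-102087147 (minus strand), chr11:90223050-90223124 (minus strand), chr2:197500053-197500090 (minus strand), chr6:31497991-31498028 (plus strand) and chr7:1160345-1160382 (minus strand). Those with an ER stress element lie at chr9:125241376-125241424 (minus strand), chr22:28800588-28800636 (minus strand), chr12:103930306-103930354 (plus strand), chr22:49918539-49918587 (plus strand) and chr12:108515108-108515156 (plus strand). All lie upstream of an annotated start. HSPA1A and HSPA1B are near-identical copies, and their upstream stretches are alike too. CHORDC1 and HSP90AA1 each held several units in a row, and HSPD1 held its units at the far end of the window, toward the divergent gene HSPE1.

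Of the 12271 genes tested, 10054 had at least 1 promoter window, and a gene counted as holding an element when any of its windows did, on either strand. GAANNTTC, a pair of GAA units that face each other, was found in 16 of 50 genes that rose by at least 1 on the log2 scale (32.0%). It was found in 6.42% of all genes with a window and in 6.77% of all 35116 RefSeq windows of that length. Its share was 10.4% among genes that rose by less than 0.5, 6.06% among genes not called and 3.33% among genes that fell by at least 0.5. TTCNNGAA, the pair that faces apart, overlaps GAANNTTC in longer arrays and was in 20% of the genes with the large rises and 8.30% of all. The genes with large rises had no more windows each than the others, 1.28 on average against 1.45.

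Longer arrays were rare. An array of 3 alternating units in a row, GAA, TTC and GAA or TTC, GAA and TTC with NN between them, was found anywhere in the window, also past the start, in 49 genes, 0.487% of those with a window, and 29 of these 49 rose (59.2%) while 5 fell. Over all genes tested, 14.9% rose and 30.2% fell (limma, adjusted p under 0.05). The genes named here for an element were picked with their values known. HSPA6, SERPINH1, CHORDC1, HSP90AA1, DNAJA1, DNAJB6, HSPD1, HSP90AB1 and HSPA8 held such an array and rose, and so did PHF8, a histone demethylase gene, by 0.50 on the log2 scale. GLI2, a transcription factor of the hedgehog pathway, held the array with a log2 fold change of -0.52, as did the small nucleolar RNA host GAS5 with -0.35.

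Of the 16 genes with an ER stress element, 10 rose (62.5%) and 1 fell. By log2 fold change the 10 were HSPA5 at 1.28, XBP1 at 1.01, HSP90B1 at 0.76, SYNPO at 0.65, CRELD2 at 0.64, FICD at 0.52, SERP1 at 0.48, CALR at 0.44, PDIA6 at 0.39 and CANX at 0.30. SYNPO encodes an actin-binding protein. A TATAAA match was in 28.0% of the genes with rises of at least 1 and in 8.16% of all. The cyclic AMP element TGACGTCA was in 2.00% against 3.90%, and the AP-1 site, TGANTCA with C or G in the middle, in 6% against 4.91%. The windows of BAG3, HSPH1, DEDD2, CLK1, RSRP1 and EDN1 held neither 2-unit pair before the start, which says only that these letters are not in these windows. The plot of element shares shows the response classes side by side.

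**Figure D1:**
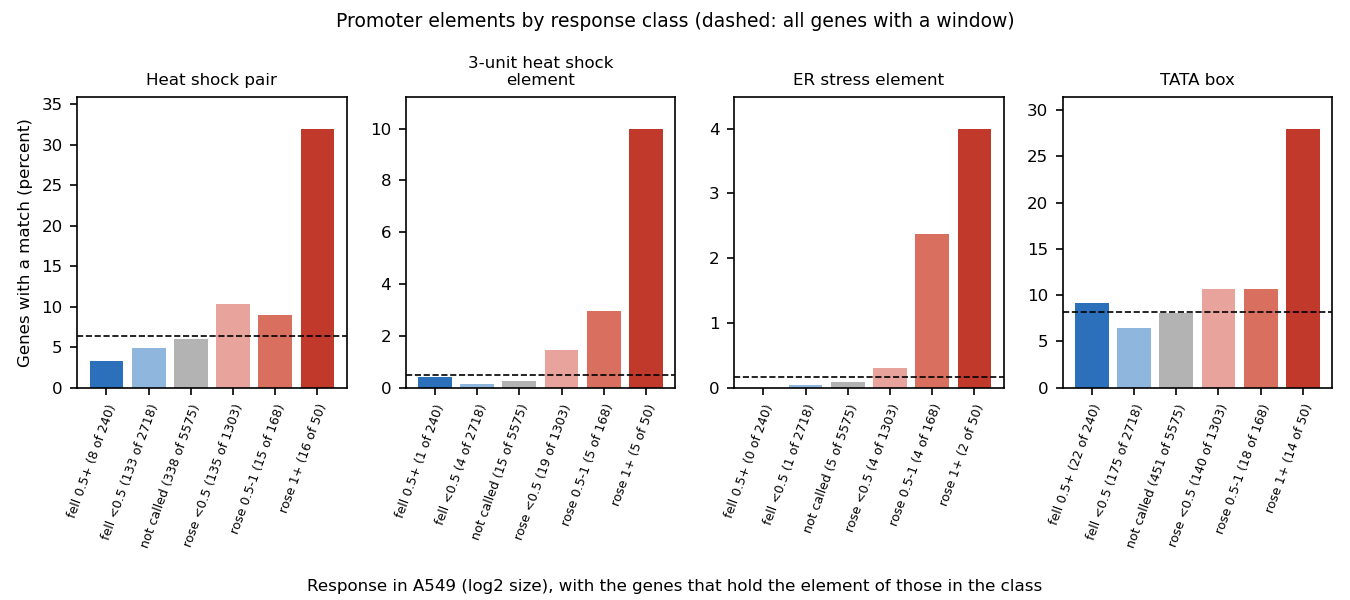
Share of genes (percent, vertical axis) with a GAANNTTC match, a 3-unit heat shock element, an ER stress element or a TATAAA match in a promoter window, for 6 classes of response in A549. The dashed line is the share over all 10054 genes tested that have a window. The class that rose by at least 1 on the log2 scale stands above that line in all 4 panels.

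The response in A549 held a small number of large rises and many small changes, more of which were falls. At an adjusted p under 0.05 (limma, Benjamini-Hochberg over 12271 genes), 1833 genes (14.9%) were higher and 3709 (30.2%) were lower in the exposed group. Of these, 1746 and 3575 had no overlap between the 3 exposed and the 3 control libraries. The median called rise was 0.24 and the median called fall -0.25 on the log2(FPKM + 1) scale. Differences of at least 0.5 were found for 274 higher and 315 lower genes, of at least 1 for 59 higher and 5 lower, and of at least 2 for 13 higher and 0 lower, also at an unadjusted p under 0.05. On the recovered counts, limma-voom called 3 falls of that size. The sign of the small differences depends on how the libraries are scaled to each other. With each library centred on its median there were 2547 genes higher and 2659 lower, and with quantile normalization 2494 and 2913. The median over all genes was -0.05 on the log2 scale in the main scaling, 0.00 when centred and -0.08 with library sums that left out mitochondrially encoded genes. The plot of change against control level shows the lopsided shape.

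Counted as fragments, the chaperone genes took up a measurable part of the library. The 68 listed genes of the HSP70, HSP90, HSP60, small heat shock protein and DNAJ families held 3.10%, 3.35% and 2.64% of all counts in the exposed libraries and 1.47%, 1.54% and 1.51% in the controls. All 3 exposed libraries lay above the controls, and library 3 was the lowest of them. HSPA1A, HSPA1B and HSPA6 alone went from 0.0200% ± 0.000769 to 0.313% ± 0.105 (SD, n = 3). Of all FPKM gained by genes with a higher mean, 25.5% lay in these 68 genes. The 13 mitochondrially encoded protein genes went the other way, from 8.83% ± 0.464 to 7.82% ± 0.135 of counts, and held 45.4% of all FPKM lost. Among nuclear genes the largest gains in mean FPKM included those of HSP90AA1, the ferritin light chain FTL, HSPB1, HSPA1A, HSPA8, HSPA1B, HSP90AB1, DNAJA1 and HSPD1. FTL, which stores iron, rose by only 1.21-fold but from 3931 to 4758 FPKM. The largest losses were in ACTG1, PKM, IGFBP4, VIM, TNFRSF1A, FLNA, HMGA1, TM4SF1, SMOX and IGFBP3, each of which had a log2 fold change between -0.10 and -0.62. VIM overlaps VIM-AS1. The calls of ACTG1, PKM, IGFBP4 and VIM were lost with median centring (adjusted p from 0.0588 to 0.135), and that of VIM also without exposed library 1 (adjusted p = 0.0506).

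**Figure D2:**
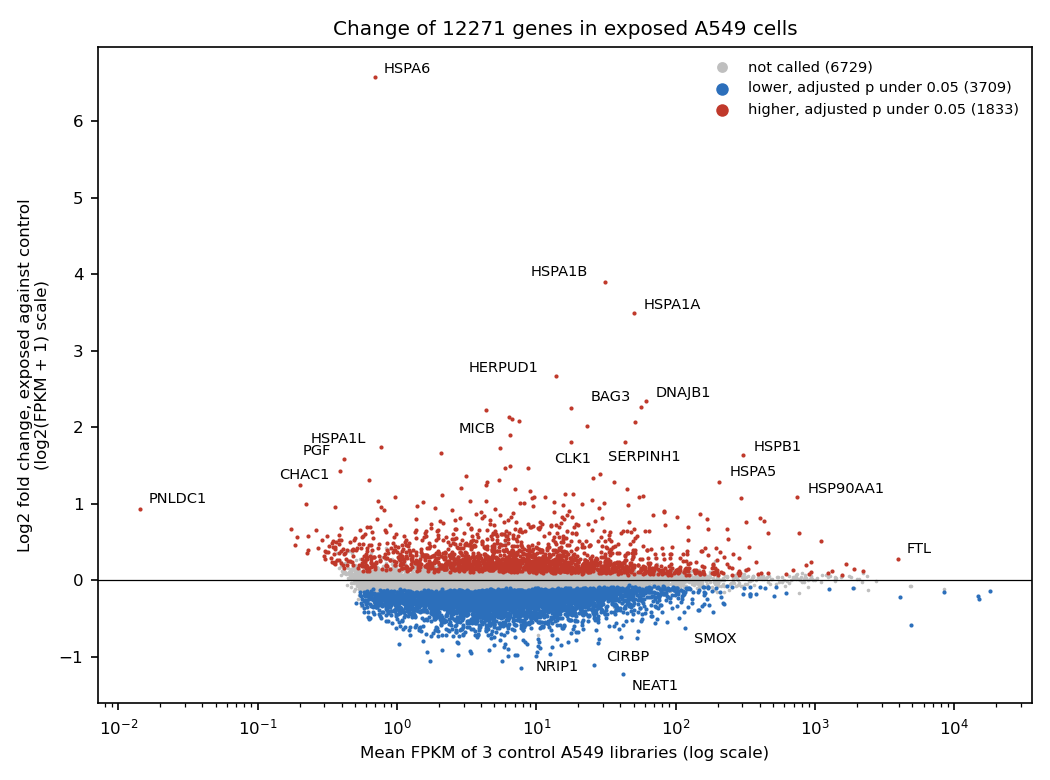
Log2 fold change of exposed against control A549 cells on the log2(FPKM + 1) scale (vertical axis) against the mean FPKM of the controls (horizontal axis, log scale), 1 point per gene. Red and blue points passed an adjusted p of 0.05 in limma, 1833 above 0 and 3709 below, and grey points did not. The 3 tallest points are the HSP70 genes HSPA6, HSPA1B and HSPA1A, and no point on the lower side falls below -1.22.

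HSPA6, an HSP70 gene that is nearly silent in unstressed cells, was at 99.97, 431 and 95.9 FPKM in exposed and 0.601, 0.602 and 0.875 FPKM in control libraries. HSPA1B was at 499.7, 608 and 360.4 FPKM in exposed and 29.9, 30.3 and 33.3 FPKM in control libraries, and DNAJB1, an HSP40 gene that overlaps TECR, at 264, 470.0 and 244 FPKM in exposed and 58.4, 62.1 and 61.9 FPKM in control libraries. Library 2 was the highest for each of them, and by the widest margin for HSPA6. The rise reached well past these genes. SERPINH1, the collagen chaperone HSP47, stood at 132, 244 and 111 FPKM in exposed and 42.99, 42.8 and 43.2 FPKM in control libraries. Each exposed library was above each control, library 2 was the highest, and the controls lay close together (log2 fold change 1.81, SE 0.21, Benjamini-Hochberg adjusted p of 4.12e-05 in limma). HSPB1, a small heat shock protein that holds unfolded proteins, went from 305 ± 10.1 to 983 ± 314 FPKM (SD, n = 3), and the exposed values were 906, 1328 and 714 FPKM (adjusted p = 4.27e-05, limma). HSPB8, which works with BAG3 in clearing misfolded protein, was at 35.1, 39.4 and 24.5 FPKM in exposed and 6.19, 7.01 and 6.99 FPKM in control libraries. HSPA4L, a nucleotide exchange factor of the HSP110 family, was at 22.1, 23.4 and 16.5 FPKM in exposed and 5.73, 5.27 and 5.34 FPKM in control libraries. Library 2 was again the highest and library 3 the lowest of the exposed libraries for these genes, and no exposed library overlapped a control. HSPA1L, the third HSP70 gene of the HSPA1A cluster, rose 6.57-fold from a low level, from 0.771 ± 0.0445 to 5.07 ± 1.67 FPKM. Of the 58 tested genes of the HSP and DNAJ families, 30 rose and 10 fell (51.7% and 17.2%), against 14.9% and 30.2% of all genes. Their median log2 fold change was 0.14, against -0.05 for all genes.

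Most genes of HSP90 and the proteins that load it rose. Of 19 genes for HSP90 and its co-chaperones, 14 rose and 3 fell (73.7% and 15.8%), against 14.9% and 30.2% of all genes. Their median was 0.53 on the log2 scale, and rises outnumbered falls in each of 4 other scalings. HSP90AA1, the inducible cytosolic HSP90, whose gene overlaps WDR20, was at 1597, 1709 and 1436 FPKM in exposed and 717, 763 and 738 FPKM in control libraries. CHORDC1, an HSP90 co-chaperone also known as morgana, was at 81.3, 79.7 and 69.2 FPKM in exposed and 33.3, 25.7 and 27.2 FPKM in control libraries. The immunophilin FKBP4 went from 57.7 ± 0.831 to 126 ± 22.7 FPKM, and the immunophilin PPID, which overlaps ETFDH, from 27.9 ± 0.497 to 54.9 ± 4.21 FPKM. AHSA1, which activates the ATPase of HSP90, rose 1.84-fold (log2 fold change 0.87, SE 0.06, Benjamini-Hochberg adjusted p of 1.22e-06 in limma), and STIP1, which joins HSP70 to HSP90, 1.60-fold. ST13, an HSP70-interacting protein, rose by 0.41 on the log2 scale. In all of these the exposed and control libraries did not overlap.

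The chaperonins rose by less. Of 16 genes of the cytosolic chaperonin TRiC, prefoldin and the mitochondrial HSP60 system, 11 rose (68.8%) and 0 fell (median 0.21). There were 0 falls also at an unadjusted p under 0.05 and with limma-voom on the recovered counts. HSPD1 and HSPE1, the mitochondrial HSP60 and HSP10, which share a divergent promoter, rose 1.72-fold and 1.89-fold. HSPD1 stood at 757, 794 and 672 FPKM in exposed and 416, 444 and 429.7 FPKM in control libraries. Among TRiC subunits CCT6A rose by 0.27 and CCT4, which overlaps COMMD1, by 0.37. TCP1, which overlaps ACAT2, rose by 0.38. Tubulin, a main client of TRiC, was measured by 14 genes, of which 6 rose and 2 fell. These were 42.9% and 14.3%, against 14.9% and 30.2% of all genes. TUBA1B rose by 0.20.

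The proteasome hardly moved. UBB, a gene for chains of ubiquitin, rose 1.55-fold. Of the 14 genes of the proteasome core, 3 rose and 0 fell, and of the 20 of its regulatory particle, 0 rose and 2 fell. Both counts of 0 were also 0 at an unadjusted p under 0.05 and with limma-voom, which called 1 rise in the core. The share of rises in the core (21.4%) and of falls in the regulatory particle (10%) stood beside 14.9% and 30.2% over all genes. PSMB3, a core subunit, had a log2 fold change of 0.11, a call that was lost in 9 of 18 alternatives. The order of these small counts changed with the scaling, to more falls than rises in the core with quantile normalization and with library sums that left out mitochondrial genes. In the regulatory particle it changed to more rises than falls with median centring. The heat shock factor genes were themselves lower. HSF2 had a log2 fold change of -0.46, HSF4, which overlaps FBXL8, of -0.42, and HSF1, which overlaps DGAT1, of -0.10 (limma with Benjamini-Hochberg adjustment, adjusted p = 0.0493). The call of HSF1 was lost in 14 of 18 alternatives, with adjusted p from 0.0515 to 0.369, and in each fit without 1 A549 library. HSBP1, which binds HSF1, rose by 0.23.

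In the ER, most of the listed chaperones and folding enzymes rose. Of 20 genes for protein disulfide isomerases and ER folding factors, 12 rose and 4 fell (60% and 20%), with a median of 0.24. Over all genes, 14.9% rose and 30.2% fell. HSPA5, the ER HSP70 known as BiP, was at 618, 481 and 409 FPKM in exposed and 196, 209 and 205 FPKM in control libraries, and library 1 was the highest of them (log2 fold change 1.28, SE 0.15, Benjamini-Hochberg adjusted p of 3.47e-05 in limma). MANF, a secreted ER stress protein that binds BiP, was at 147, 112 and 97.4 FPKM in exposed and 51.01, 55.98 and 56.5 FPKM in control libraries. PDIA4, a disulfide isomerase, rose 1.64-fold, the exchange factor HYOU1 1.60-fold, DNAJC3, which curbs the kinase PERK, 1.70-fold, and CRELD2 1.66-fold. The lectin chaperones CALR and CANX rose by 0.44 and 0.30 on the log2 scale. XBP1, the transcription factor spliced by the sensor IRE1, went from 30.6 ± 0.810 to 63.2 ± 11.7 FPKM. CCDC117, whose annotated gene ends 5259 bases from that of XBP1 on the other strand, rose as well, from 9.39 ± 0.340 to 19.4 ± 1.66 FPKM, and was picked after its value was seen.

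Of 19 genes of ER-associated degradation, 7 rose and 4 fell (36.8% and 21.1%), against 14.9% and 30.2% of all genes. Apart from HERPUD1, which is anchored in the ER membrane, the rises were moderate. SELENOS, a selenoprotein that recruits p97, rose by 0.46, SEL1L, the partner of the ligase HRD1, by 0.44, and the mannosidase-like EDEM3 by 0.41. EDEM1 went the other way (-0.25), as did the conjugating enzyme UBE2G2 (-0.31).

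The branch of the response that runs through the kinase PERK and the factor ATF4 was measured in genes picked after their values were seen. ATF4 was at 49.4, 43.9 and 42.3 FPKM in exposed and 32.96, 35.2 and 33.4 FPKM in control libraries. DDIT3, the gene of the proapoptotic factor CHOP, which overlaps MARS1, was at 49.5, 43.01 and 37.3 FPKM in exposed and 19.2, 22.7 and 21.6 FPKM in control libraries, with library 1 the highest. CHAC1, a glutathione-degrading enzyme induced by this branch, was at 3.62, 2.66 and 2.11 FPKM in exposed libraries and 0.351, 0.496 and 0.314 FPKM in the controls. With all controls under 0.5 FPKM, CHAC1 passed the level filter only through the exposed libraries and had to differ. TRIB3, at 26.7, 22.4 and 21.9 FPKM in exposed and 24.1, 25.2 and 23.9 FPKM in control libraries, overlapped between the groups (adjusted p = 0.657, limma with Benjamini-Hochberg adjustment). PPP1R15A, the stress-induced subunit of the phosphatase that reverses PERK signalling, was at 71.3, 117 and 78.5 FPKM in exposed and 67.9, 73.3 and 72.02 FPKM in control libraries and did not pass (adjusted p = 0.0844), but did without exposed library 1 (0.0144). Without exposed library 2 its log2 fold change went from 0.29 to 0.07.

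The exposed libraries were not alike, and which one stood highest differed between the gene groups. All 12 genes of the ER folding list that rose, and all 7 of the ER-associated degradation list, were highest in exposed library 1. Of the 14 that rose on the HSP90 list, 10 were highest in library 2. Over all 1833 genes that rose, 765 were highest in library 1, 746 in library 2 and 322 in library 3, and of the 274 that rose by at least 0.5, 180 were highest in library 2 and 86 in library 1. The median rise of the ER folding genes was 0.76, 0.42 and 0.39 in libraries 1, 2 and 3, while that of the HSP90 genes was 0.70, 0.71 and 0.51. By element, 9 of the 10 risen genes with an ER stress element were highest in library 1. Of the 29 risen genes with the 3-unit heat shock array, 16 were highest in library 1 and 12 in library 2. Of the 11 chaperonin genes that rose, 6 were highest in library 1 and 4 in library 2. DNAJB9, an ER partner of BiP, was at 33.6, 24.1 and 20.99 FPKM. SERPINH1, an ER chaperone whose promoter holds a heat shock array, was at 132, 244 and 111 FPKM. A part of the elements in these orders was not tested. These libraries are single samples, so an order among 3 of them has no test.

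Library 3 lay nearest to the controls. On the first principal component the exposed libraries were at 15.53, 18.03 and 9.82 and the controls between -14.8 and -13.9. For the 59 genes that rose by at least 1, the median rise was 1.28, 1.59 and 1.16 in libraries 1, 2 and 3, and library 3 was the lowest for 43 of them. For the 315 that fell by at least 0.5, the median change was -0.63, -0.64 and -0.51. The response of library 3 was 78.1% of the mean of the others at the median over the 59 genes, with a range from 52.9% to 111%. The genes at the low end were CCL26, an eosinophil-attracting chemokine, at 52.9%, and the glycogen-targeting subunit PPP1R3C at 61.2%. RSRP1 (104%) and EDN1 (111%) were the 2 that reached the other libraries, and CLK1 (93.7%), GADD45B (93.2%) and DUSP1 (93.1%) came close. Among the 59 genes the coefficient of variation was larger in the exposed than in the control libraries for 52, with medians of 22.1% and 4.88%, and it ranged from 0.456% to 51.7% among controls. That of RSRP1 was larger among controls (14.2% against 2.24%). The coefficient of variation of HSPA6 was 92.0% among exposed and 22.8% among control libraries, that of SERPINH1 43.9% and 0.456%.

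**Figure D3:**
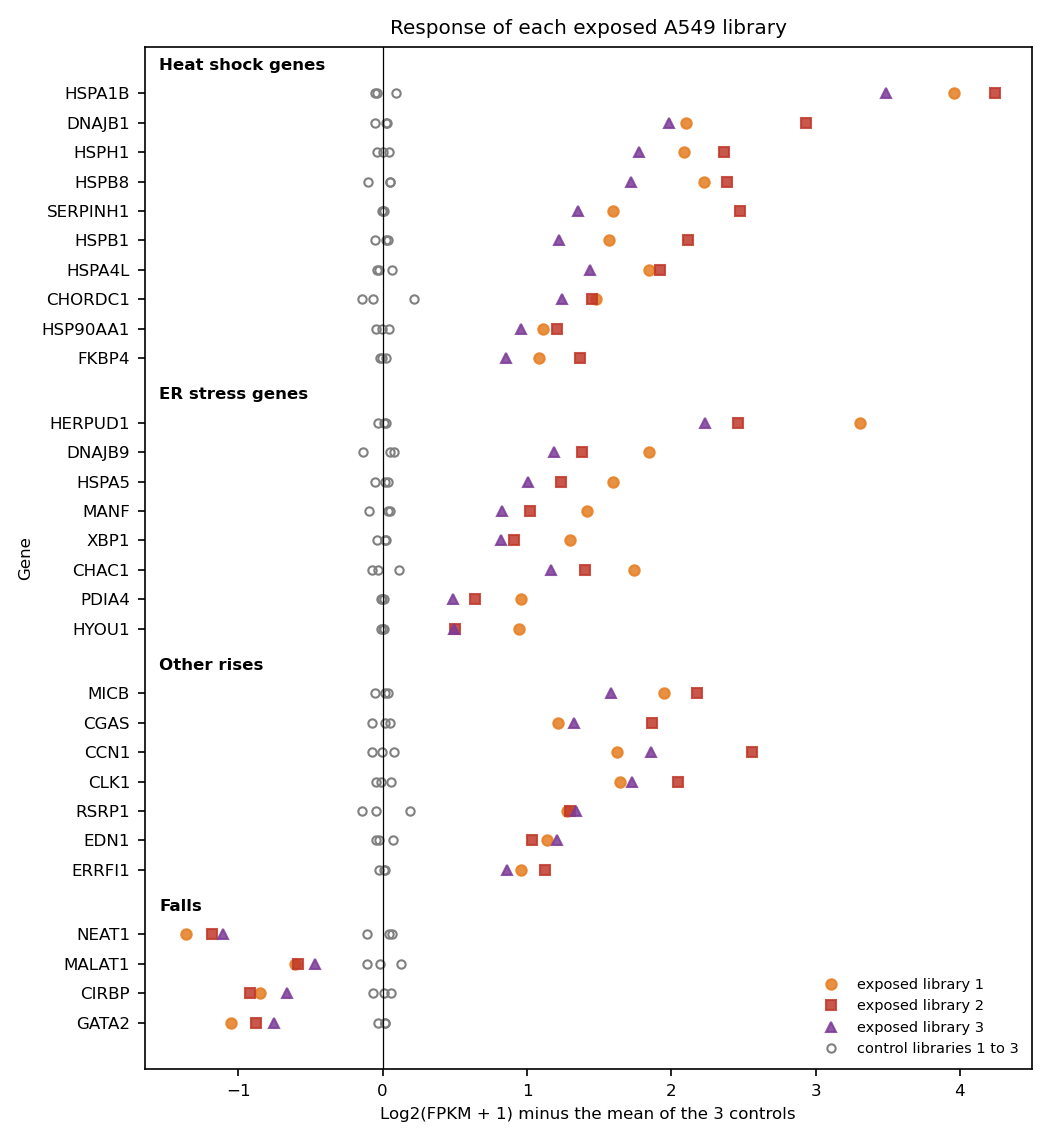
Log2(FPKM + 1) of each A549 library minus the mean of the 3 controls (horizontal axis) for 29 genes named in the text. Filled symbols are exposed libraries 1, 2 and 3, open grey circles are the controls. The ER stress genes have exposed library 1 farthest to the right, most heat shock genes have library 2 there, and for EDN1 and RSRP1 it is library 3.

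Several genes of signalling and secreted factors, picked singly by the rules for names, were also measured. EDN1, the vasoconstrictor peptide endothelin 1, was at 41.3, 38.3 and 43.3 FPKM in exposed and 17.6, 19.2 and 17.9 FPKM in control libraries (log2 fold change 1.13, SE 0.06, Benjamini-Hochberg adjusted p of 2.36e-07 in limma). The exposed libraries lay close together and far from the controls, with library 3 the highest. In GRCh38.p14 its gene spans chromosome 6 from 12230516 to 12297194. ERRFI1, a feedback inhibitor of the EGF receptor, was at 31.3, 35.3 and 29.2 FPKM in exposed and 15.8, 15.7 and 15.4 FPKM in control libraries. Of 17 DUSP genes, phosphatases that damp MAP kinases and a family picked after values were seen, 7 rose and 2 fell. These were 41.2% and 11.8%, against 14.9% and 30.2% of all genes. DUSP1 (1.29) and DUSP5 (1.08) led the rises. NRG1, a ligand of the ERBB receptors, rose 1.71-fold, while ERBB2, which overlaps MIEN1, fell (-0.28) and EGFR had a log2 fold change of -0.16. PGF, a growth factor of the VEGF family, went from 0.471, 0.364 and 0.418 FPKM in the controls to 2.84, 5.33 and 2.16 FPKM in the exposed libraries. Its controls all lay under 0.5 FPKM, so it passed the level filter only through the exposed libraries and had to differ. The matrix glycoprotein THBS1 rose 2.16-fold and COL7A1, the collagen of anchoring fibrils, fell by a factor of 1.70.

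MICB and CGAS, genes of immune recognition, rose. MICB, a cell surface ligand of the receptor NKG2D on natural killer cells, was at 27.9, 32.9 and 21.5 FPKM in exposed and 6.57, 6.21 and 6.70 FPKM in control libraries (log2 fold change 1.90, SE 0.11, Benjamini-Hochberg adjusted p of 3.98e-07 in limma). CGAS, a sensor of DNA in the cytosol, was at 15.04, 24.2 and 16.3 FPKM in exposed and 6.16, 5.99 and 5.57 FPKM in control libraries. MICB carries a GAANNTTC pair in the stretch shown above. Of 16 genes of class I antigen presentation, 2 rose and 3 fell (12.5% and 18.8%), against 14.9% and 30.2% of all genes. The rises were CALR and PDIA3, which overlaps ELL3, and both also belong to the ER folding list. TAPBP, which overlaps RGL2 and loads peptides, had a log2 fold change of -0.32. More rises than falls were found there with median centring. Of 28 NF-kB genes, 5 rose and 12 fell (17.9% and 42.9%, median -0.10). The falls included TNFAIP2 (-0.42), TNIP1 (-0.27) and TNFAIP3 (-0.29), and TRAF2 rose by 0.48.

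Genes that decide between survival and death moved both ways. MCL1, a short-lived antiapoptotic protein, was at 144, 189 and 139 FPKM in exposed and 87.2, 78.9 and 81.1 FPKM in control libraries. PMAIP1, whose product NOXA binds MCL1, rose 1.85-fold. Of the 18 tested BCL2 family genes, 4 rose and 7 fell (22.2% and 38.9%), against 14.9% and 30.2% of all genes. The falls included BOK (-0.37) and BCL2L11 (-0.24), the gene of BIM. GADD45B, a growth arrest gene, rose 2.11-fold, while the antiproliferative BTG2 was lower, at -0.74 on the log2 scale. CHAC1, PGF, PNLDC1, ZNNT1, C11orf94, REP15, LOC105379326 and LOC105376866 had control means under 0.5 FPKM and exposed means of at least 1 FPKM, by the rule that picked them. Genes like these had to differ in level, since they passed the level filter wholly or mainly through the exposed libraries. Over all genes tested, 51 had no control library at 0.5 FPKM and 96 no exposed one. Of the 51 genes 46 were called higher, and of the 96 genes 86 were called lower. The filter favoured these calls, which are part of the 1833 higher and 3709 lower. PNLDC1, a trimmer of germline small RNAs, was at 0.582, 1.78 and 0.651 FPKM in exposed libraries and 0.00861, 0.0173 and 0.0172 FPKM in controls.

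Genes of RNA processing and decay were measured next, beside 14.9% higher and 30.2% lower over all genes. CLK1, a kinase that phosphorylates SR splicing factors and controls its own intron retention, was at 57.3, 75.9 and 60.8 FPKM in exposed and 18.4, 17.01 and 17.5 FPKM in control libraries and had the smallest p among the genes that rose (adjusted p = 1.69e-07, limma with Benjamini-Hochberg adjustment). RSRP1, the gene in the title of the series, was at 14.4, 14.6 and 15.03 FPKM in exposed and 4.74, 5.14 and 6.22 FPKM in control libraries, and exposed library 3 was its highest. KHDC4, an RNA-binding splicing factor whose gene hosts a small nucleolar RNA, was at 39.99, 37.6 and 32.2 FPKM in exposed and 16.1, 15.5 and 16.9 FPKM in control libraries. C1orf116, an androgen-regulated gene of epithelia, was at 5.94, 5.79 and 5.32 FPKM in exposed and 2.25, 1.85 and 2.17 FPKM in control libraries. Of 11 SRSF genes, a family picked after values were seen, 0 rose and 5 fell (45.5%, limma). There was 1 rise at an unadjusted p under 0.05 and 0 with limma-voom. TOB2, which recruits the deadenylase complex to messenger RNA, rose by 0.72 and its paralog TOB1 had a log2 fold change of -0.37. The translation factor EIF1 rose by 0.42, while of 28 initiation factors as a whole 5 rose and 5 fell (17.9% each way). Of 20 stress granule genes 4 rose and 6 fell (20% and 30%), an order that turned with median centring. NUFIP2, a stress granule protein, rose by 0.62 and FXR1 by 0.50. Of 29 genes for mRNA decay and AU-rich element binding 12 rose and 7 fell (41.4% and 24.1%), an order that turned when library sums left out the mitochondrial genes. The rises included CNOT4 (0.39) and DDX6 (0.22), and the decay factors ZFP36L1 and ZFP36L2 parted (0.35 and -0.43). Of 30 Mediator genes 8 rose and 11 fell (26.7% and 36.7%), an order that turned with quantile normalization and median centring. MED22 had a log2 fold change of -0.57 and MED30 of 0.50.

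Among transcription factors, MYC rose 1.74-fold, at 47.7, 43.00 and 46.8 FPKM in exposed and 25.96, 26.7 and 26.1 FPKM in control libraries. JUN, at 40.9, 76.4 and 47.2 FPKM in exposed and 25.1, 24.8 and 25.01 FPKM in control libraries, was highest in library 2. The immediate-early genes FOS and IER5, picked after their values were seen, were highest in that library as well. FOS was at 6.16, 24.01 and 7.55 FPKM in exposed and 5.35, 4.78 and 5.02 FPKM in control libraries, and IER5 at 45.1, 116.3 and 53.3 FPKM in exposed and 25.5, 25.4 and 24.9 FPKM in control libraries. The call of FOS (adjusted p = 0.0384) was lost without any 1 control library (0.065 to 0.0876), and its log2 fold change went from 0.93 to 0.37 without exposed library 2. EGR1, at 17.4, 53.6 and 19.3 FPKM in exposed and 16.5, 16.4 and 17.2 FPKM in control libraries, did not pass (adjusted p = 0.0986, limma with Benjamini-Hochberg adjustment), but did without exposed library 1 (0.0277) or 3 (0.0477). Without exposed library 2 the log2 fold change of EGR1 went from 0.63 to 0.13 (adjusted p = 0.296). Of 28 tested KLF, EGR and AP-1 factors, 9 rose and 6 fell (32.1% and 21.4%), against 14.9% and 30.2% of all genes. The falls included KLF11 (-0.64), KLF13 (-0.37) and KLF16 (-0.54). Of 38 SOX, FOX, HES and lung epithelial factors, 8 rose and 15 fell (21.1% and 39.5%). The count turned to more rises than falls with quantile normalization. EHF rose by 0.53, and the related epithelial factor ELF3 went from 53.2 ± 0.923 to 33.3 ± 2.40 FPKM. GATA2, a zinc finger transcription factor, was at 2.49, 2.93 and 3.29 FPKM in exposed and 6.08, 6.29 and 6.31 FPKM in control libraries.

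The falls were spread over many groups, and 5 of them reached 1 on the log2 scale, against 59 rises. The largest was that of a nuclear non-coding RNA. NEAT1 is the gene of the scaffold RNA of paraspeckles. It was at 15.6, 17.8 and 18.9 FPKM in exposed and 43.1, 38.8 and 43.7 FPKM in control libraries. Its log2 fold change was -1.22 (SE 0.06, Benjamini-Hochberg adjusted p of 2.86e-07 in limma), and it spans chromosome 11 from 65422798 to 65445540 (GRCh38.p14). MALAT1, its neighbour, which marks nuclear speckles, was at 24.1, 24.4 and 26.5 FPKM in exposed and 40.7, 34.4 and 36.7 FPKM in control libraries. The values of NEAT1 and MALAT1 cover only transcripts that were captured on oligo(dT) beads. Isoforms were not told apart, so a fall of the scaffold form itself was not measured. Of 16 nuclear long non-coding RNAs 4 rose and 7 fell (median -0.19). Of 26 hosts of small nucleolar RNAs, 2 rose and 15 fell (57.7%, median -0.23), against 30.2% lower over all genes. The hosts encode their small RNAs in introns and their spliced transcripts are short-lived. SNHG12, which overlaps TRNAU1AP, was at 6.33, 3.45 and 6.17 FPKM in exposed and 9.47, 10.9 and 10.2 FPKM in control libraries, and library 2 was its lowest. SNHG32, GAS5 and EPB41L4A-AS1 had log2 fold changes of -0.34, -0.35 and -0.54, the last 2 overlapping other genes. Ribosome biogenesis genes fell too, 17 of 35 with 3 rises, among them NOP56 (-0.22), a host of small nucleolar RNAs itself, RRP9 (-0.28) and MYBBP1A (-0.39), which overlaps SPNS2.

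All 4 genes of the list of cold-inducible and related RNA-binding genes were lower, against 30.2% of all genes. CIRBP and RBM3, which rise in cooled cells, were the first of them. CIRBP was at 14.7, 14.05 and 16.9 FPKM in exposed and 26.1, 28.6 and 27.7 FPKM in control libraries (log2 fold change -0.81, SE 0.06, Benjamini-Hochberg adjusted p of 2.1e-06 in limma). RBM3 went from 72.3 ± 2.30 to 56.7 ± 2.38 FPKM. SRSF5 (-0.33) and RBMX (-0.13) made up the rest of this list of 4. In exposed 293T all 4 genes were lower as well, with a median of -0.39 against -0.34 in A549.

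Among receptors and pathways of cell fate, falls outnumbered rises in each list counted, as they did over all genes tested (30.2% lower and 14.9% higher). The shares of falls in the WNT (33.3%) and nuclear receptor (34.4%) lists were near that of all genes, and those in the Notch (50%) and clock (47.4%) lists were higher, with no test of either. In the Notch pathway 11 of 22 genes fell and 3 rose (median -0.20). The rises were the ligand JAG1 (0.64), the receptor NOTCH1 (0.74) and the coactivator MAML1 (0.27), while the receptor NOTCH3 (-0.52), the ligand JAG2 (-0.56), the glycosyltransferase LFNG (-0.56) and the target HES4 (-0.48) fell. In the WNT pathway 10 of 30 fell and 1 rose. The feedback target AXIN2 (-0.56), the receptor FZD7 (-0.42) and PORCN (-0.41), the acyltransferase needed to secrete WNT proteins, were among the falls, and the coreceptor LRP6 (0.28) was the rise. Of 32 nuclear receptors and corepressors 11 fell and 2 rose. NRIP1, a corepressor of estrogen and other receptors, was at 10.9, 10.6 and 13.1 FPKM in exposed and 27.3, 24.4 and 25.5 FPKM in control libraries. The vitamin D receptor VDR (-0.60) and the thyroid hormone receptor THRA (-0.44), which overlaps NR1D1, also fell. Of 19 clock genes 9 fell and 2 rose, with PER3 at -0.48 and PER1 at -0.31 among the falls and BHLHE40 (0.40) among the rises.

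In the lists of metabolism and transport described in this paragraph, between 36.8% and 50% of the genes fell, against 30.2% of all genes. Several other lists of this kind had lower shares of falls. These were 23.5% for pentose phosphate and NADPH enzymes, 26.7% for polyamine metabolism and 32.3% for NRF2 and detoxification genes. The mitochondrial ribosome had 22.5%, the lysosome 13.8% and metallothioneins 14.3%. Of 26 amino acid and nutrient transporters 11 fell and 3 rose. SLC38A2, a carrier of neutral amino acids that is made when these are scarce or the medium is hypertonic, rose 1.77-fold, and the taurine carrier SLC6A6 fell by a factor of 1.57. Over all 191 tested SLC genes, a family picked after values were seen, 79 fell (41.4%) and 16 rose (8.38%). Of 30 fatty acid and lipid droplet genes 15 fell and 3 rose. FASN, the fatty acid synthase, fell by a factor of 1.37 and DGAT2, which makes triglycerides, by 2.43, while the desaturase SCD rose by 0.30. Of 23 glycolysis genes 11 fell and 3 rose, and the glucose carriers parted, SLC2A3 at 28.6, 28.2 and 26.9 FPKM in exposed and 15.6, 15.5 and 14.8 FPKM in control libraries and SLC2A1 with a log2 fold change of -0.32. Of 26 nucleotide synthesis genes 11 fell and 3 rose, led by DHODH (-0.57), the target of leflunomide, and CAD (-0.21). Of 27 hypoxia-inducible genes 9 rose and 10 fell, an order that turned with TPM, quantile normalization and median centring, and the rises were led by the collagen prolyl hydroxylases P4HA2 (0.72) and P4HA1 (0.72). Of 19 iron genes 4 rose and 7 fell. HMOX1, heme oxygenase 1, rose by 0.47 and the ferritin heavy chain FTH1 by 0.14, while the ferrireductase STEAP3 had a log2 fold change of -0.34. SMOX, which oxidises spermine, was at 72.4, 78.7 and 75.6 FPKM in exposed and 118, 115 and 117 FPKM in control libraries (log2 fold change -0.62, SE 0.04, Benjamini-Hochberg adjusted p of 5.31e-07 in limma).

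DNA repair, chromatin, matrix and calcium genes were counted beside the 30.2% of all genes that fell. The share was 18.2% for double-strand break repair, 37.5% for calcium genes, 37.9% for integrin and matrix genes and 42.9% for chromatin remodelling genes. Of 25 nucleotide and base excision repair genes 13 fell (52.0%) and 2 rose, including the uracil glycosylase UNG (-0.33) and the damage sensor XPC (-0.27). Of 33 double-strand break repair genes 6 fell and 4 rose, with more rises than falls under quantile normalization and median centring. Of 28 chromatin remodelling genes 12 fell and 4 rose, among them BRD9 (-0.55) and CHD4 (-0.41). Of 29 integrin and matrix genes 11 fell and 3 rose, the falls including ITGA5 (-0.37), ITGB4 (-0.41), which overlaps GALK1, and LAMA5 (-0.45). Of 32 calcium genes 12 fell and 6 rose, with CAMKK1, a kinase that activates AMP kinase, at 2.08, 2.08 and 2.56 FPKM in exposed and 6.02, 5.33 and 5.72 FPKM in control libraries.

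Single genes with large falls belonged to none of these groups. USP46-DT, a divergent transcript, went from 1.35, 1.59 and 2.00 FPKM in controls to 0.621, 0.301 and 0.236 FPKM. RIN1, a RAS effector, was at 1.90, 1.86 and 2.06 FPKM in exposed and 3.76, 3.76 and 3.98 FPKM in control libraries, and NAA80, which acetylates actin and overlaps HYAL3, at 0.673, 0.651 and 0.586 FPKM in exposed and 2.03, 2.23 and 2.00 FPKM in control libraries. The adaptor GRB7, the ligase receptor DCAF16, the arrestin-domain protein ARRDC3, the synaptic adhesion gene LRFN4, NOL4L, GOLGA8B and the antisense gene BSG-AS1 had log2 fold changes of -0.93, -0.91, -0.87, -0.85, -0.84, -0.89 and -0.88. LRFN4 overlaps PC, BSG-AS1 overlaps BSG, and GOLGA8B has near-identical copies, so these values are uncertain. The plot of gene lists sets the shares of all 60 lists beside those of all genes.

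**Figure D4:**
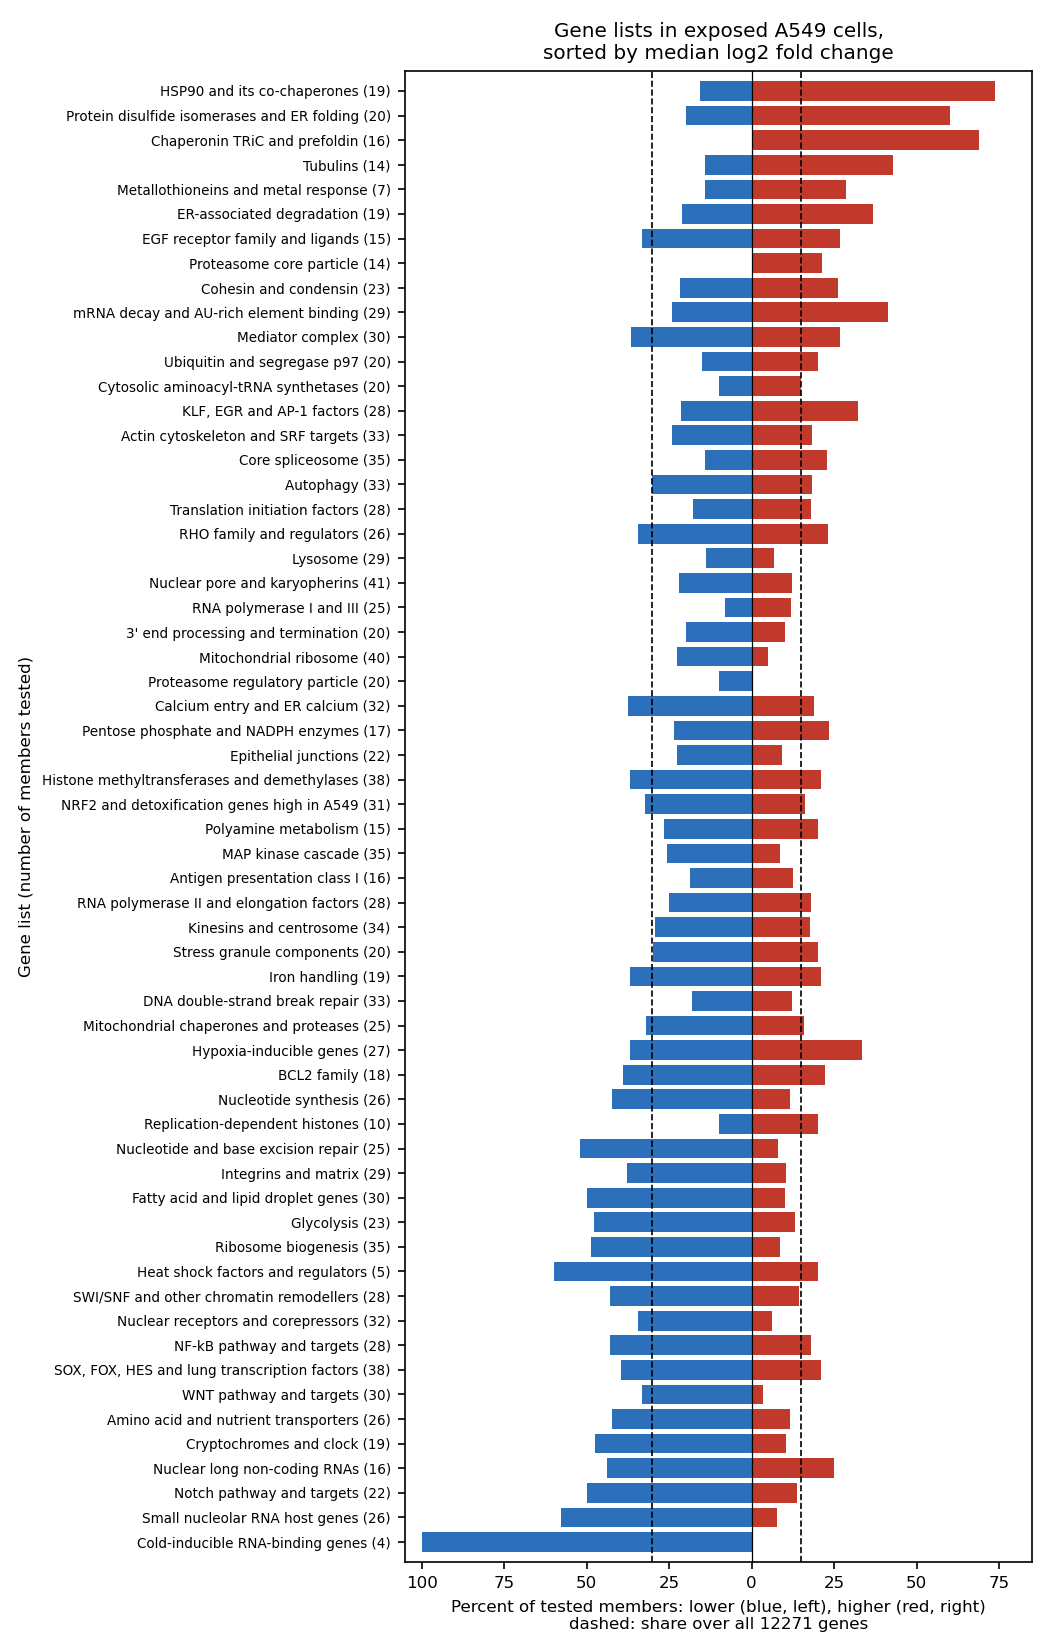
Percent of the tested members of each gene list that rose (red, to the right) or fell (blue, to the left) in exposed A549 cells at an adjusted p of 0.05 in limma, sorted by the median log2 fold change, with the number tested beside each name. Dashed lines mark the shares over all 12271 genes, 14.9% higher and 30.2% lower. HSP90 and its co-chaperones stand at the top and the cold-inducible RNA-binding genes at the bottom.

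The share of falls varied with where a gene lies and with its promoter, by classes picked after values were seen. On chromosomes 16, 17, 19, 20 and 22, 1129 of 2788 genes fell (40.5%) and 321 rose (11.5%), against 2555 of 9414 (27.1%) and 1500 (15.9%) on the others. Promoter GC content moved with it. With genes in 4 equal classes by the GC of their windows, in the class with the highest, 71.1% and above, 37.4% fell and 10.5% rose, and in the lowest, up to 59.0%, 23.1% fell and 17.9% rose. Within the highest GC class, 48.7% of the genes on those 5 chromosomes and 33.5% of the others fell, and within the lowest 34.2% and 20.8%. A part of base composition in the measured falls was not tested. Protein-coding and non-coding genes were close, with 30.4% and 28.2% lower and 15% and 14.3% higher. By genomic span, the class of 4 with the shortest genes had 33.2% lower and that with the longest 25%. Of 338 ZNF-numbered genes 64 rose and 96 fell (18.9% and 28.4%), against 14.9% and 30.2% of all genes. The order turned to more rises than falls with quantile normalization and median centring. Of 40 TRIM genes, picked after values were seen, 7 rose and 21 fell (52.5%).

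Neighbours of the genes with the largest rises were counted by position, beside 14.9% higher and 30.2% lower over all genes. Of 12 genes within 50 kb downstream on the same strand of a gene that rose by at least 1, 1 rose and 7 fell, with a median log2 fold change of -0.17. SNHG32, which follows HSPA1B on chromosome 6 after 4662 bases, had a log2 fold change of -0.34. Among 12 upstream neighbours on the other strand, 4 rose and 1 fell, with a median of 0.12. Of 13 downstream on the other strand 5 rose and 3 fell, and of 7 upstream on the same strand 2 rose and 1 fell.

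The response was set beside that of 293T, measured in its own exposed and control libraries. Of the 1833 genes that rose in A549, 858 also rose in 293T, which is 46.8% of the A549 genes and 50.3% of the 1706 that rose there (13.9% of all tested). Of the 3709 that fell, 1935 also fell in 293T, 52.2% of the A549 genes and 66.0% of the 2932 in 293T (23.9%). Calls in opposite directions were made for 64 and 90 genes. The difference itself passed the threshold for 1530 genes, more positive in A549 for 625 (5.09%) and more negative for 905 (7.38%). Of the 59 genes that rose by at least 1 in A549, 43 rose further there than in 293T and 1 less far, and of the 21 tested genes that rose by at least 1 in 293T, 5 rose less far there than in A549 and 5 further. Picking genes by their rise in 1 line favours that line in such a count. The level filter was also set on the A549 libraries alone, while 12618 genes pass the same rule in 293T. Genes with too low a level in A549 were therefore not compared, which also favours A549.

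The responses of the chaperone lists were compared between the lines as well. Of the 19 HSP90 list genes, 10 had a more positive response in A549 and 0 a more negative one, which became 1 at an unadjusted p under 0.05 and 1 with limma-voom. Of the 16 chaperonin genes 8 were more positive and 0 more negative, in limma, at an unadjusted p under 0.05 and with limma-voom. Of the 20 ER folding genes 0 differed in limma or limma-voom and 1 at an unadjusted p under 0.05, and their medians were 0.24 in A549 and 0.26 in 293T. HSPA6 rose by 6.58 in A549 and 3.05 in 293T, a difference of 3.53 (SE 0.90, limma adjusted p = 0.0228). MICB rose by 1.90 against 0.13, HSPA1L by 1.74 against 0.06, CCN2 by 1.5 against -0.06 and CCN1 by 2.02 against 0.48. CCN1 and CCN2 encode matricellular proteins that are targets of YAP. In the other direction, JUN rose by 1.05 in A549 and 2.16 in 293T, RHOB by 0.55 and 2.29, and the mTOR inhibitor gene DDIT4 by 0.57 and 2.05. NRIP1 had -1.10 and -0.05, and SLC7A11, the cystine carrier, -0.51 and 0.53. The rise of RHOB in A549 was not called without exposed library 2 (adjusted p = 0.142) or without any 1 of the controls (0.0655 to 0.0703). The fall of SLC7A11 was not called without exposed library 1 (0.0709), exposed library 2 (0.0646) or control library 1 (0.0962). With limma-voom on the recovered counts, a scale with no added 1 FPKM, the difference for HSPA6 was 3.85 and did not pass (adjusted p = 0.522). ATF3, a stress-induced transcription factor picked after its values were seen, was at 13.8, 19.2 and 14.4 FPKM in exposed and 16.04, 18.4 and 16.96 FPKM in control libraries, so the groups overlapped, while it rose by 1.5 in 293T. The difference for ATF3 had an adjusted p of 0.000688. MYC was higher in exposed A549 and lower in exposed 293T (0.78 and -0.56), as was SLC2A3 (0.83 and -0.29).

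**Figure D5:**
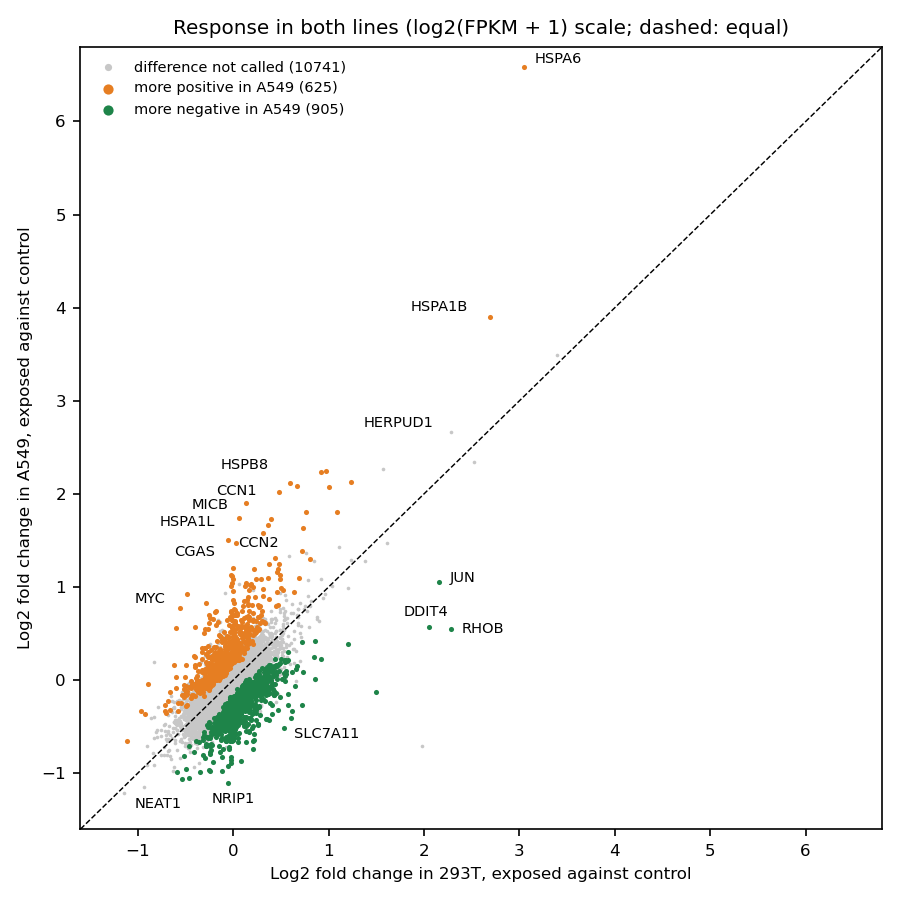
Log2 fold change in 293T (horizontal axis) against that in A549 (vertical axis) for the 12271 genes, both on the log2(FPKM + 1) scale. Coloured points are the 1530 genes whose response differed between the lines at an adjusted p of 0.05, orange where it was more positive in A549 and green where it was more negative. The labelled chaperone and YAP target genes lie above the diagonal, and JUN, RHOB and DDIT4 below it.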

How the data were processed

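Poly(A)-selected RNA of exposed and control A549 and 293T cells was sequenced in paired ends. The tools named in the submitters' processing notes are fastp, HISAT2 and HTSeq, with GRCh38 as the build. Their versions and settings, the annotation and the strand setting are not given in the sources used here. Overlapping, antisense or near-identical genes may therefore share reads. The deposited values are FPKM, scaled by the authors to gene length and library total. A gain in abundant transcripts thus lowers the rest. Whole counts could be recovered from them for 100% of the 26348 genes within 0.01 counts, with totals of 37173111 to 38884705 over all 12 libraries. Precision is given by the spread of 3 libraries a group.

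Genes with at least 0.5 FPKM in at least 3 of the 6 A549 libraries were fitted as log2(FPKM + 1) in limma 3.58.1 (R 4.3.3), with 1 mean for each of 4 groups over 12 libraries, an intensity trend and 8 residual degrees of freedom. Such fold changes understate those of low genes, and folds in the text are quotients of mean FPKM. Tests were two-sided with Benjamini-Hochberg adjustment over 12271 genes and a threshold of 0.05, for exposed against control A549, the same in 293T, and the difference between the lines. The genes and the 60 gene lists were chosen with earlier results of these data known, and lists are described by counts and medians without a test.

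Genes were named by rule among those past the threshold whose libraries did not overlap and whose higher group averaged at least 1 FPKM. These were the 24 largest log2 changes each way, the 10 largest FPKM changes each way in nuclear genes and the 8 smallest p each way. Added to these were 8 rises from a control mean under 0.5 FPKM, 5 differences from 293T each way, RSRP1, and members of each list with the smallest p. X-inactivation and Y-linked genes were passed over, and some genes picked by the rule are not reported here. Promoters came from RefSeq windows of GRCh38.p14, matched by gene identifier, and were searched in Python 3.11.15 (numpy 2.4.6, pandas 2.3.3). The fit was tested on simulated data.

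The alternatives were a pseudocount of 0.1, 3 other filters, 4 other scalings (quantile, TPM, median centring, and the sum without mitochondrial genes), a variance without a trend, the A549 libraries alone, the replicate block, limma-voom on the recovered counts, and leaving out each A549 library.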

Additional observations from a re-analysis of the deposited data

Results flagged for a closer look

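The responses listed here differed between A549 and 293T in limma's test of the difference itself (adjusted p under 0.05). They were drawn from genes named for the largest changes in A549 or the largest differences from 293T, and RSRP1. ATF3, MYC and SLC2A3 were added. Picking by a large rise in A549 favours a positive value, and picking by a large fall a negative one. Each value is the log2 fold change in A549 minus that in 293T. With 3 libraries in each group, single libraries were not examined as outliers.

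Among the chaperone genes and partners listed, all picked by a large rise in A549, the differences were positive. They were 3.53 for HSPA6, 1.21 for HSPA1B, 1.68 for HSPA1L, 1.33 for HSPA4L, 1.08 for HSPH1, 1.52 for HSPB8, 0.90 for HSPB1 and 1.05 for SERPINH1. DEDD2, a death-domain protein gene, gave 1.27 and ZFAND2A, a zinc finger gene induced by arsenite, 1.31. The matricellular genes CCN1 and CCN2 gave 1.54 and 1.56, MICB 1.77, CGAS 1.44, PGF 1.28, CLK1 0.72 and RSRP1 0.50. PGF passed the level filter only through the exposed A549 libraries, which favours a positive value. MYC and SLC2A3, called in opposite directions in the lines, gave 1.34 and 1.12.

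Differences were negative for genes that rose more in 293T, with -1.74 for RHOB, -1.47 for DDIT4 and -1.10 for JUN, and for ATF3, at -1.63, which was called in 293T and not in A549. They were also negative for genes that fell in A549, with -1.05 for NRIP1, -1.04 for SLC7A11, -0.95 for ARRDC3, -0.88 for GATA2, -0.87 for GRB7, -0.84 for SNHG12, -0.67 for BSG-AS1, -0.59 for CAMKK1 and -0.54 for NOL4L. Of these 32 differences 22 passed in every alternative that gives one. The 10 that did not were those of HSPA6, ZFAND2A, SERPINH1, HSPB1, CGAS, GRB7, BSG-AS1, SNHG12, JUN and RSRP1. HSPB1 was lost in 12 alternatives and RSRP1 in 6, including 5 of 6 fits without 1 library (adjusted p from 0.0514 to 0.0617 where lost). With limma-voom on the recovered counts the differences for HSPA6, CGAS and GRB7 were 3.85, 1.05 and -0.45 with adjusted p of 0.522, 0.623 and 0.691.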

How the results depend on the processing

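Of the 203 genes examined, 183 kept their direction and their side of the threshold in all 18 alternatives, and 4 in the 17 that tested them, since the filter on a mean of 1 FPKM leaves out 5 of the genes. The counts of calls stayed within 1.5 times of the main ones except where a log2 change of at least 1 was required. That left 59 genes higher, 5 lower and 33 with a different response. Without 1 library, the counts ranged from 1508 to 1763 higher, from 3057 to 3655 lower and from 1107 to 1622 with a different response. In the other alternatives they ranged from 1425 to 2547, from 2659 to 4473 and from 1233 to 1732. With the replicate block there were 1805 genes higher, 3674 lower and 1414 with a different response, and with limma-voom on the recovered counts 1813, 3609 and 1236. Deviations of libraries with the same number had correlations of -0.152, -0.0843 and -0.0474 across genes, which gives no sign of shared deviations. Whether libraries with the same number were handled together cannot be told from these values.

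Calls were lost in some alternative for 13 genes, among them IGFBP3, IGFBP4 and TM4SF1 with a pseudocount of 0.1 (adjusted p = 0.0839, 0.0502 and 0.116), EGFR with median centring (0.0612) and C11orf94 without a filter (0.0536). RHOB was also lost without a filter (0.113) and with limma-voom (0.0536), SLC7A11 without a filter (0.0851), and FOS without a filter (0.131), with a pseudocount of 0.1 (0.0514) and in the A549 libraries alone (0.0892). The difference for JUN was lost without a filter (0.0576). TRIB3, not called, turned to 0.002 with median centring and ranged from -0.132 to 0.003 without 1 library. Genes under about 1 FPKM are compressed by the pseudocount, and nothing shows how separate cultures would vary. In a simulation with changes of 1.5-fold, 93 of 100 changed genes were recovered, so smaller differences may be missed. It was drawn from the control means with 1 fixed setting for the spread between libraries. In the data, the median coefficient of variation among exposed libraries was 22.1% for the 59 genes with large rises. The simulated rate is therefore not the sensitivity of these libraries.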
